A study of Saccharomyces cerevisiae with 16 samples.

Results

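EGT2, DSE4, CTS1 and AMN1 are 4 budding yeast genes that act when a daughter cell parts from its mother. They were taken as the spots whose single gene name is one of these 4, and each gene had 1 spot, of 3344 single-gene spots for 3127 genes. The genes were chosen because they were among the most strongly lowered in the mean over the series, so their levels are given as a description and without a test. The cells were Saccharomyces cerevisiae CDY59, a wild-type strain. RNA of CDY59 kept in the rich medium YPD with 200 mM hydroxyurea for 1, 2, 4 or 6 h was hybridised to 2-colour slides beside RNA of untreated YPD cells at an optical density of 0.5. Every time was measured on a pair of slides of opposite orientation, called forward where channel 1 held the treated RNA and swapped where channel 2 held it. A slide was read 2 times, and the titles call the readings faible and fort, French for weak and strong. The labels name neither separate cultures nor an untreated culture matched in time. The p-values therefore measure only the spread between slides, which may be technical, and an effect of longer growth as such would also be part of each ratio.

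Mother and daughter yeast cells are joined after division by a septum of chitin and glucan, which hydrolases secreted from the daughter side digest. Many of these genes are transcribed as cells leave mitosis and enter G1. Hydroxyurea lowers deoxynucleotide supply by inhibiting ribonucleotide reductase, and replication slows. DSE4, also named ENG1, codes for a daughter-specific glucanase and CTS1 for the chitinase that digests the primary septum. EGT2 codes for a wall protein needed for timely separation, and AMN1 for a daughter-specific antagonist of the mitotic exit network.

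All values are log2 ratios of treated over untreated RNA, with 0 set at the median gene of each reading and the 2 readings of a slide averaged. The direction is likely and not established, because the labels name no numerator. It was set so that RNR2 and RNR4, textbook hydroxyurea-induced genes of ribonucleotide reductase, were positive, and with the opposite sign every value would turn. On the forward 1 h slide, RNR2 stood at -0.98 and RNR4 at 0.14, against 1.78 to 5.30 for both genes on the other 7 slides. The logarithm was read as base 2, which is not stated. Across all genes the forward and the swapped slide had a Pearson r of -0.08 for 1 h, -0.03 for 2 h, 0.50 for 4 h and 0.58 for 6 h. The 1 h and 2 h pairs thus shared almost no pattern. Slides of different times had a median r of 0.56 within an orientation and 0.13 between orientations. Genes that passed for an effect of channel orientation made up 17.3% of all genes. In bulk RNA, fewer cells at the stage that expresses a gene and less RNA per cell cannot be told apart.

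EGT2 (YNL327W, chromosome XIV) had the lowest mean of the 3127 genes. Its ratios were -1.24 and -2.29 on the forward and the swapped 1 h slide, -2.95 and -2.04 at 2 h, -2.49 and -2.81 at 4 h, and -1.81 and -2.63 at 6 h. All 8 slides were below -1, and the forward 1 h slide was the highest. The mean was -2.28 ± 0.15 (moderated standard error of the limma linear model, 8 slides). That is a 4.86-fold lower ratio if the base is 2 and 9.79-fold if the logarithm is natural. Each ± given here is such an error, for which limma draws the spread of a gene toward that of all genes. With the gene's own spread alone, the error would be larger for EGT2, CTS1 and AMN1 and smaller for DSE4. EGT2 ranked lowest of all genes on 2 of the 8 slides and second lowest on 3 others, while 4.38% of genes were lower than it on the forward 1 h slide.

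DSE4 (YNR067C, chromosome XIV) varied least among the 4 genes. Its ratios were -1.39 and -1.71 on the forward and the swapped 1 h slide, -2.10 and -2.15 at 2 h, -2.25 and -1.99 at 4 h, and -1.71 and -2.15 at 6 h. The 8 slides spanned 0.86, against 1.72 for EGT2, 1.96 for AMN1 and 2.77 for CTS1. The mean was -1.93 ± 0.09, the second lowest of all genes, or 3.81-fold lower in base 2. The 2 slides of a time differed by 0.05 to 0.44, and at 1 h, 2 h and 4 h these differences were below the median gene's 0.41, 0.55 and 0.31.

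CTS1 (YLR286C, chromosome XII) differed most from slide to slide. Its ratios were -1.42 and -0.03 on the forward and the swapped 1 h slide, -1.94 and -1 at 2 h, -2.68 and -0.14 at 4 h, and -2.80 on both slides at 6 h. The gene thus stood at the median gene on the swapped 1 h and 4 h slides, and it was the lowest of all genes on the forward 4 h and the swapped 6 h slide. Its 2 slides at 4 h differed by 2.54, where 95% of genes differed by less than 0.98. The mean over the 8 slides was -1.60 ± 0.18, or 3.03-fold lower in base 2.

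AMN1 (YBR158W, chromosome II) had the smallest mean change of the 4, with -1.45 ± 0.15 or 2.74-fold lower in base 2. Its ratios were -1.21 and -0.94 on the forward and the swapped 1 h slide, -2.20 and -0.24 at 2 h, -1.81 and -1.67 at 4 h, and -2.12 and -1.46 at 6 h. The swapped 2 h slide stood apart as the highest, and the 2 slides of that time differed by 1.96, which is close to the 95th percentile of all genes. The remaining 7 slides were at or below -0.94.

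**Figure D1:**
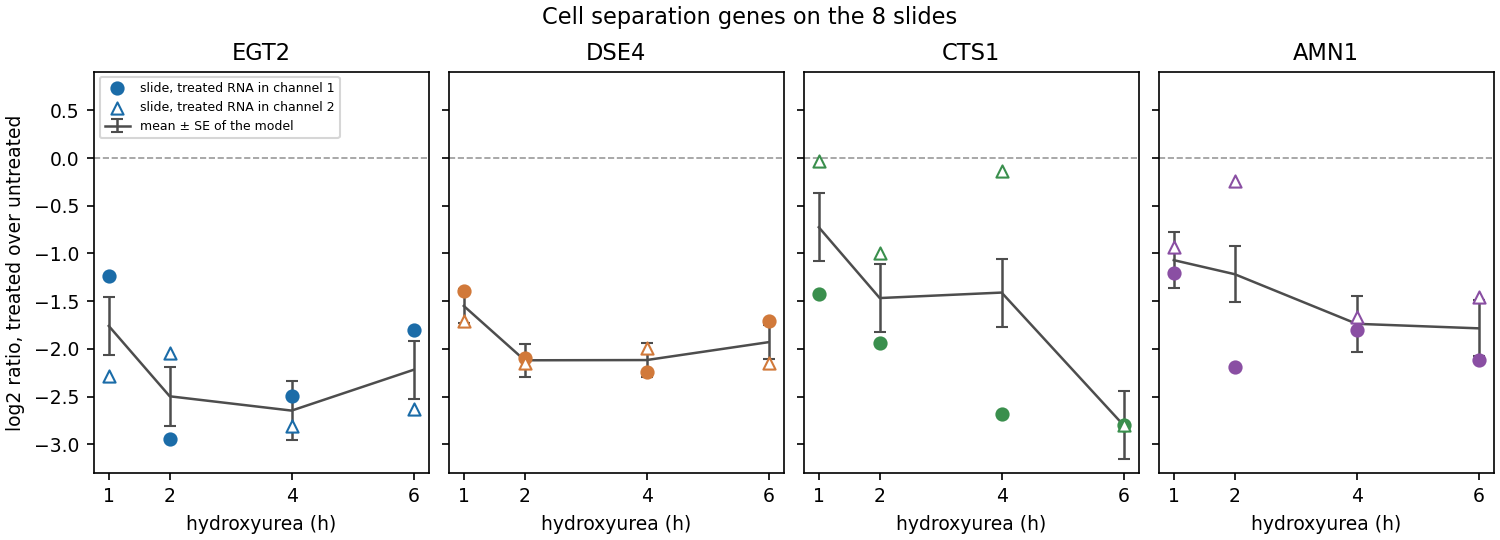
Log2 ratio of treated over untreated RNA against hours of hydroxyurea, 1 panel per gene. Each point is 1 slide (filled circles for forward, open triangles for swapped slides), and the model's mean and moderated standard error are drawn per time. EGT2 and DSE4 lie below -1 on every slide, while CTS1 reaches -0.03 at 1 h and -0.14 at 4 h and AMN1 -0.24 at 2 h on swapped slides.

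The ratios of all 4 genes were below 0 on 8 of 8 slides, as were those of 4.57% of all genes. Since the mean chose the members, nothing is read from this count, or from the 4 of 4 members among the 11.8% of genes that passed as lower in the mean. EGT2 and DSE4 were below -1 on 8 of 8 slides, AMN1 on 6 and CTS1 on 5, and 1.54% of genes were below -1 on at least 5 slides. Counted from the lowest mean, EGT2 and DSE4 held ranks 1 and 2, CTS1 rank 5 and AMN1 rank 8.

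**Figure D2:**
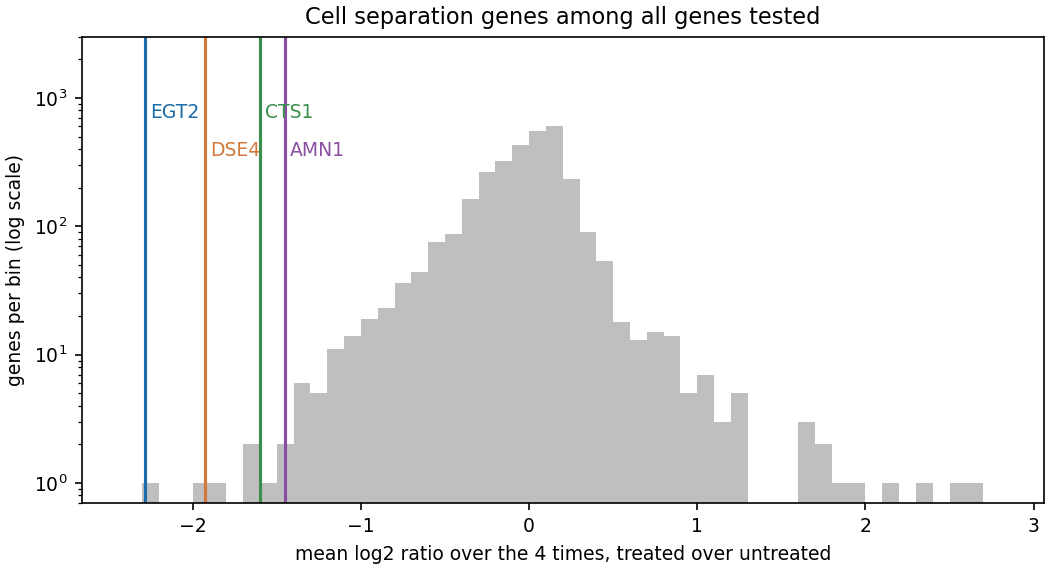
Number of genes (log scale) by mean log2 ratio over the 4 times for the 3127 genes tested, with vertical lines at the 4 cell separation genes. The lines at -2.28, -1.93, -1.60 and -1.45 lie in the sparse lower tail of a distribution whose median is 0.01.

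Whether the 4 genes changed between the times is a question that their choice by the mean did not use. From 1 h through 2 h and 4 h to 6 h, the mean ratios of EGT2 were -1.76, -2.50, -2.65 and -2.22, each ± 0.31, and those of DSE4 were -1.55, -2.12, -2.12 and -1.93, each ± 0.17. In the same order, those of CTS1 were -0.72, -1.47, -1.41 and -2.80, each ± 0.36, and those of AMN1 were -1.07, -1.22, -1.74 and -1.79, each ± 0.30. The mean ratio at 1 h was thus the least negative for every one of the 4 genes. On the swapped slides alone, however, EGT2 and AMN1 were least negative at 2 h (-2.04 and -0.24). RNR2 and RNR4 also had their smallest mean ratios at 1 h (1.29 and 1.28), so a smaller mean change at 1 h was not particular to the members. For RNR2 it came from the forward 1 h slide (-0.98). Its swapped 1 h slide (3.57) was above its swapped 4 h and 6 h slides (3.45 and 3.05). RNR4 was smallest at 1 h on the swapped slides too (2.42). The lowest mean ratio was at 4 h for EGT2, at 2 h and 4 h alike for DSE4, and at 6 h for CTS1 and AMN1.

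None of the 4 genes passed the F-test of limma for any difference among the times, with adjusted p = 0.326 (unadjusted p = 0.0203) for CTS1, 0.562 for DSE4, 0.636 for EGT2 and 0.656 for AMN1. Without centring CTS1 did pass (F = 9.81, adjusted p = 0.000301), but in that limma fit RNR2 had an adjusted p of 3.32e-90 in the mean. Values that small from 8 slides need a spread shared almost wholly among genes. The call therefore hardly rests on the spread of CTS1 itself. In the test after centring 0% of all genes passed (377 had an unadjusted p under 0.05), so the lack of a call is shared with every gene tested. In the order of the times, neighbours did not differ beyond their spread for EGT2, DSE4 and AMN1, since the 95% interval of each difference held 0. For DSE4 the 1 h ratio was above the 2 h ratio by a margin whose interval only just held 0 (2 h minus 1 h, -0.57, 95% interval -1.14 to 0.002).

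CTS1 was the exception in these intervals, which are not adjusted for the number of genes or pairs. They also rest on the moderated spread, which for CTS1 was below its own residual standard deviation of 0.75. With the gene's own spread and its 3 residual degrees of freedom alone, the intervals would be wider and would all hold 0. The 6 h ratio of CTS1 was below its 1 h ratio (difference -2.08, 95% interval -3.24 to -0.91). It was also below the 2 h ratio (difference -1.33, 95% interval -2.50 to -0.17) and the 4 h ratio (difference -1.39, 95% interval -2.56 to -0.22). The ratios at 1 h, 2 h and 4 h did not differ beyond their spread. The forward slides alone ran from -1.42 through -1.94 and -2.68 to -2.80, and the swapped slides from -0.03 through -1 and -0.14 to -2.80.

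The late minus early difference, the average of 4 h and 6 h less that of 1 h and 2 h, was below 0 for all 4 genes, and none passed in limma. Without centring it was above 0 for EGT2 (0.085) and DSE4 (0.20), and without the swapped 2 h slide for EGT2 (0.10). The difference was -1.01 for CTS1 (95% interval -1.83 to -0.18, adjusted p = 0.224, unadjusted p = 0.0226) and -0.62 for AMN1 (95% interval -1.30 to 0.06, adjusted p = 0.307). For EGT2 it was -0.30 (95% interval -1.01 to 0.40, adjusted p = 0.589) and for DSE4 -0.19 (95% interval -0.59 to 0.22, adjusted p = 0.561). Again 0% of all genes passed, against 549 at an unadjusted p under 0.05. AMN1 passed without the forward 2 h slide (-1.02, adjusted p = 0.0272), where 137 genes did, and stood at -0.22 without the swapped one. For CTS1 it was -0.57 without the forward and -1.45 without the swapped 4 h slide, and -0.60 without the swapped 6 h slide.

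CTS1 and AMN1 had the lower means on forward slides, and EGT2 and DSE4 on swapped slides, which turned for DSE4 without centring (-0.016). Mean ratios were -2.21 on the 4 forward slides and -0.99 on the 4 swapped slides for CTS1, and -1.83 and -1.08 for AMN1. For EGT2 they were -2.12 and -2.44, and for DSE4 -1.86 and -2.00. The difference of forward from swapped slides was -1.22 for CTS1 (95% interval -2.04 to -0.39, limma adjusted p = 0.0522) and -0.76 for AMN1 (95% interval -1.44 to -0.07, adjusted p = 0.105). With either 2 h slide left out, that of AMN1 was -0.355 (adjusted p = 0.230), and with either 4 h slide left out, that of CTS1 was -0.775 (adjusted p = 0.103). In the full fit it was 0.32 for EGT2 (adjusted p = 0.466) and 0.14 for DSE4 (adjusted p = 0.589). None passed, with CTS1 and AMN1 at an unadjusted p under 0.05. CTS1 did pass in 5 of 16 alternatives, among them with fort readings only (-1.30, limma adjusted p = 0.0362). Those 5 include the omission of either 6 h slide, which gave the same estimate (-1.62) and is 1 result counted 2 times. Within each orientation the mean of every member was below 0, which their choice by the mean over all slides favours.

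The 2 readings of a slide gave different sizes. The fort reading was lower than the faible reading in 31 of 32 pairs of member and slide, and the exception was EGT2 on the forward 2 h slide (-2.98 in the faible and -2.92 in the fort reading). Mean ratios in the faible and the fort readings were -2.06 and -2.51 for EGT2, -1.69 and -2.17 for DSE4, -1.38 and -1.82 for CTS1, and -1.28 and -1.62 for AMN1. Across all genes, the standard deviation of the fort reading was 1.15 to 1.43 times that of the faible reading of the same slide, so the larger size was not confined to these 4 genes. The order of the members was the same in both kinds of reading.

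**Figure D3:**
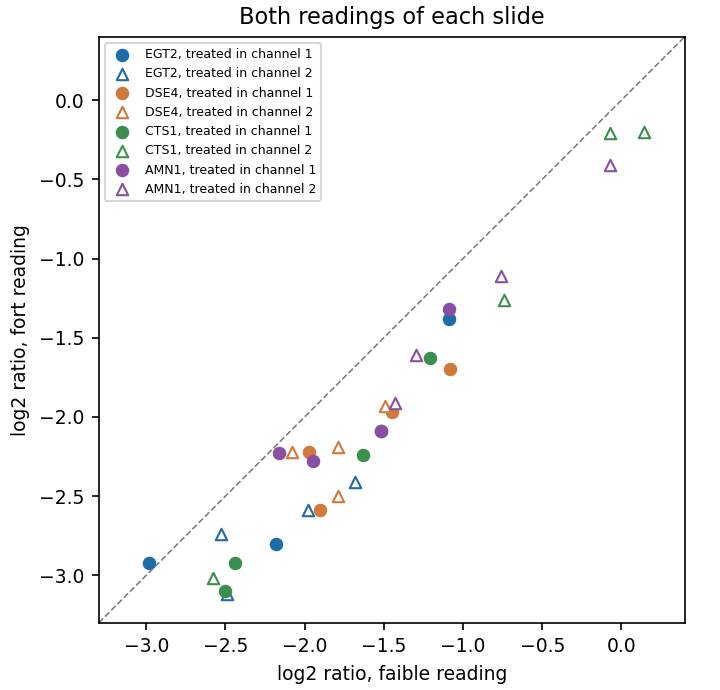
Log2 ratio in the fort reading against that in the faible reading of the same slide, with 8 slides for each of the 4 genes (filled circles for forward, open triangles for swapped slides) and a dashed line of equal values. Of 32 points, 31 lie below the line.

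The members did not share 1 pattern over the slides. EGT2 and DSE4 varied together over the 8 slides (Pearson r = 0.77), and CTS1 and AMN1 less so (r = 0.52). The correlation was 0.35 for EGT2 with AMN1, 0.26 for DSE4 with CTS1, 0.07 for DSE4 with AMN1 and -0.03 for EGT2 with CTS1. These values describe 8 slides that share orientation and possibly untreated RNA, and carry no test.

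Of the 3123 other genes, the one most like DSE4 over the slides was DSE3 (YOR264W, r = 0.88), itself a daughter-specific gene, with a mean of -0.60 ± 0.09 (limma adjusted p = 0.00394). TIM21 (r = 0.87) and CYT1 (r = 0.85), genes of the mitochondrial inner membrane, followed, with means of -0.01 and -0.31. EGT2 was most like VHS3 (r = 0.94), AIM14 (r = 0.90) and ESL2 (r = 0.87), whose means of -0.04, 0.02 and -0.10 were close to the median gene. The genes most like CTS1 were the histone deacetylase gene HDA1 (r = 0.86, mean -0.19), the peroxisomal gene PEX22 (r = 0.85, mean -0.05) and the ribosome biogenesis gene NSA2 (r = 0.84, mean -0.82 ± 0.08, adjusted p = 0.000585). AMN1 was most like RRP14 (r = 0.98), a ribosome biogenesis gene with a mean of -0.54 (adjusted p = 0.0308), the phosphatase gene PTC3 (r = 0.98, mean -0.27) and SEC12 (r = 0.98, mean 0.07) of vesicle formation. All 3 genes most like AMN1 were high on the swapped 2 h slide, at 0.79, 1.53 and 0.96.

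**Figure D4:**
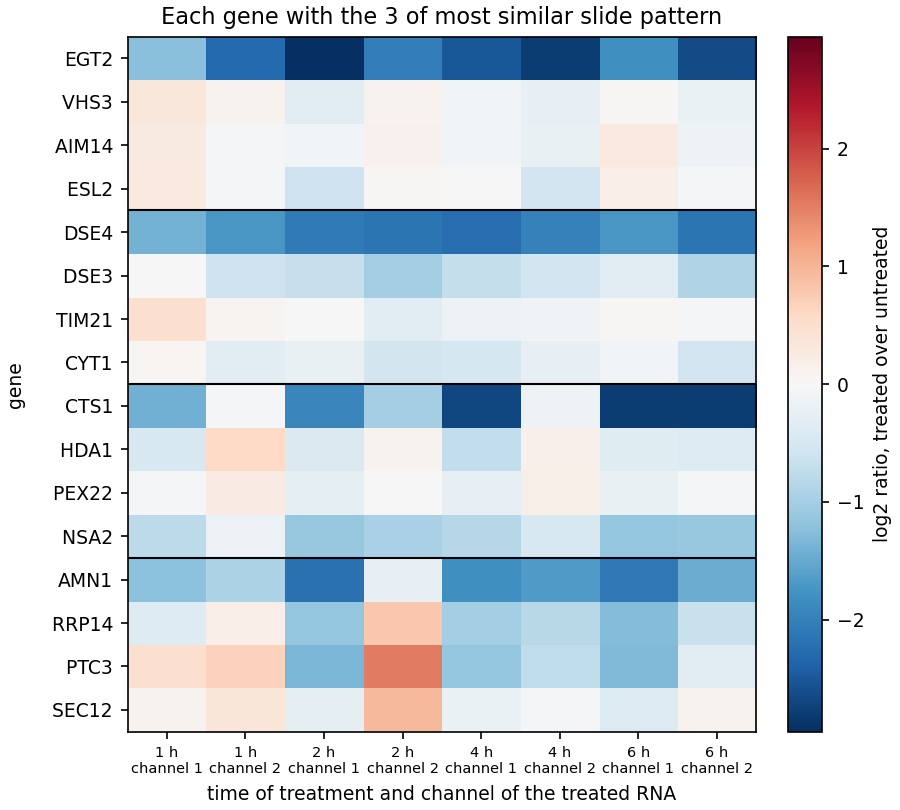
Log2 ratio (colour) on the 8 slides for each of the 4 genes and, indented under it, the 3 other genes with the highest Pearson correlation over the slides. The 4 genes are blue on nearly all slides, and most of the correlated genes share the pattern at a level near 0.

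Of 10 other listed cell separation and daughter-specific genes, 6 were measured, and 3 fell in the mean, 0 rose and 3 did not pass. Their median was -0.45, against 0.01 for all genes tested, of which 11.8% passed as lower and 6.97% as higher. NIS1 (YNL078W), whose protein lies at the bud neck, stood at -0.43 and -1.12 on the forward and the swapped 1 h slide, -1.59 and -1.21 at 2 h, -1.02 and -0.64 at 4 h, and -0.60 and -1.01 at 6 h. It was below 0 on every slide, with a mean of -0.95 ± 0.11 (limma adjusted p = 0.00119).

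SCW11 (YGL028C), a wall protein related to glucanases, had a mean of -0.74 ± 0.11 (limma adjusted p = 0.00395). Its ratios were -1.13 and -0.09 on the forward and the swapped 1 h slide, -1.31 and -0.68 at 2 h, -0.60 and 0.06 at 4 h, and -0.96 and -1.23 at 6 h. Like CTS1 it was near 0 on the swapped 1 h and 4 h slides, and among the 3123 genes it ranked number 35 by correlation with CTS1 (r = 0.74). The correlations of the 4 members with the 6 genes of this group ran from -0.79 for AMN1 with PRY3 to 0.88 for DSE4 with DSE3, and those of CTS1 with PRY3 and CHS1 were -0.59 and -0.47. DSE3 was at 0.02 and -0.60 at 1 h, -0.69 and -1.02 at 2 h, -0.70 and -0.56 at 4 h, and -0.34 and -0.89 at 6 h, forward before swapped. CHS1, coding for a chitin synthase that repairs the wall at separation, was at -0.31 ± 0.11 (adjusted p = 0.0966), AIM44 at 0.12 (adjusted p = 0.400) and PRY3 at 0.15 (adjusted p = 0.282). The means of all 6 measured genes of this group were less negative than the -1.45 of AMN1, the smallest change among the 4 members, whose size is a result of their choice.

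Genes of the mitotic exit network, which AMN1 antagonises, were measured for 7 of 15 listed, and 2 fell, 0 rose and 5 did not pass, with a median of -0.25, where 11.8% of all genes were lower. NET1, which holds the phosphatase Cdc14 in the nucleolus, had -0.54 ± 0.10 (limma adjusted p = 0.00930), and TEM1, the GTPase that Amn1 binds, -0.31 ± 0.08 (adjusted p = 0.0273). The call of TEM1 was absent in 11 of 17 alternatives, with its largest adjusted p at 0.496, and that of NET1 in 2. Of 13 measured cytokinesis and septum genes among 23 listed, 2 fell, 0 rose and 11 did not pass, with a median of -0.17, so the share that fell was near that of all genes. They were the septin gene CDC11 (-0.53 ± 0.11, adjusted p = 0.0130) and RHO1 (-0.41 ± 0.08, adjusted p = 0.0132), the GTPase that activates glucan synthase. The call was absent in 4 of 17 alternatives for CDC11 and in 6 for RHO1, with adjusted p up to 0.198. The chitin synthase genes CHS2 and CHS3 stood at -0.24 (adjusted p = 0.0774) and 0.07 (adjusted p = 0.564).

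Other wall glycosidases and related wall genes were measured for 9 of 15 listed, with a median of -0.01, and 1 fell, 1 rose and 7 did not pass. UTR2, which crosslinks chitin to glucan, had -0.64 ± 0.12 (limma adjusted p = 0.00982, call absent in 2 of 17 alternatives), and NCA3, of the SUN family, rose by 0.56 ± 0.08 (adjusted p = 0.00337). The glucanase genes BGL2, EXG1 and ACF2 stood at -0.01, -0.38 and 0.09, with adjusted p from 0.175 to 0.976. Genes of M/G1 that depend on Mcm1 had 0 of 3 measured genes passing in limma and 1 at an unadjusted p under 0.05, with MCM7 at -0.26, MCM2 at -0.19 and CDC6 at 0.03.

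**Figure D5:**
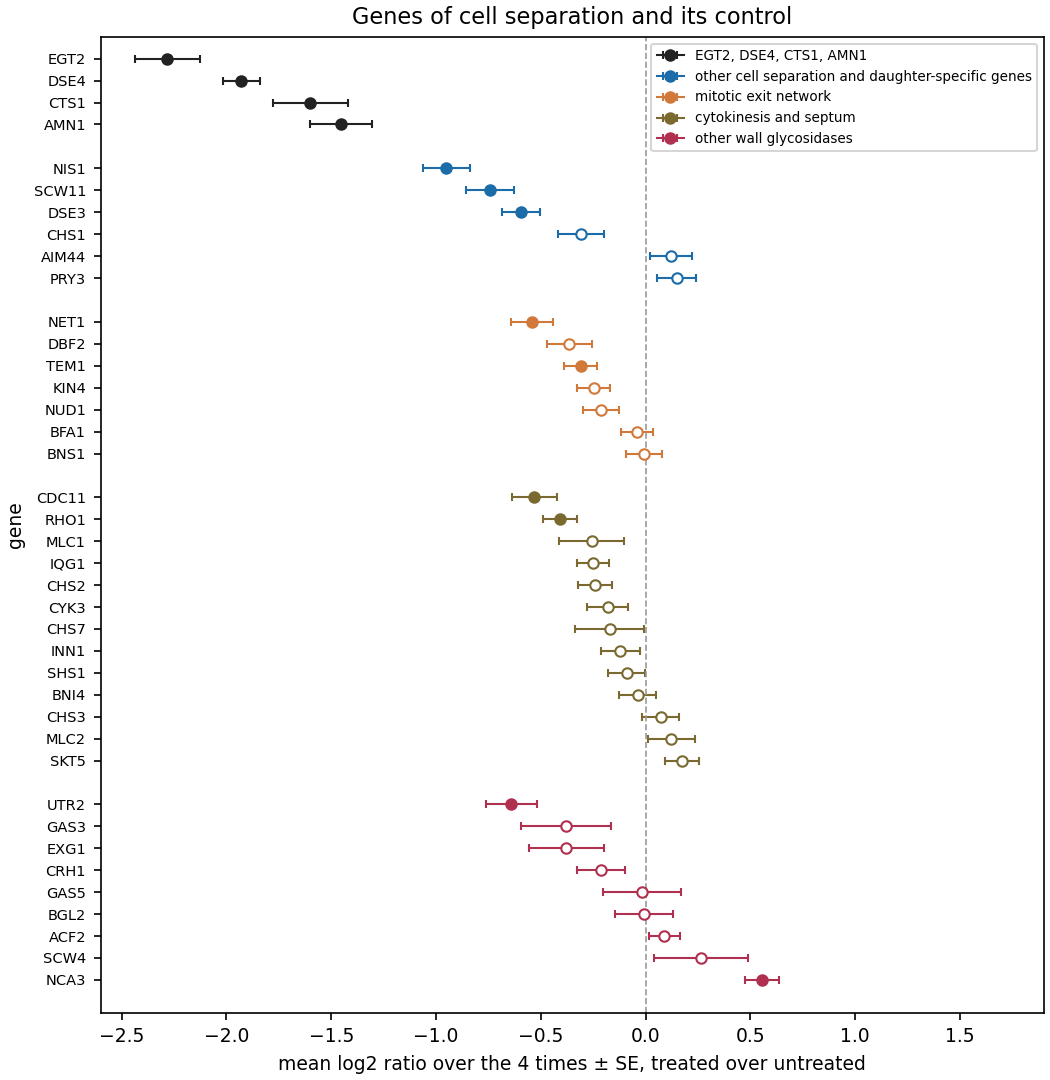
Mean log2 ratio over the 4 times with its moderated standard error for the measured genes of cell separation and its control, grouped by colour. Filled points mark an adjusted p under 0.05. Points of the 4 members are filled too, but this mean chose them, so the filling is no test of them. The 4 genes described here lie at -1.45 or lower, the other cell separation and daughter-specific genes between -0.95 and 0.15, and the remaining groups between -0.64 and 0.56.

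Some genes of other cell cycle stages passed as well, and their part in the results above was not tested. Over all genes 11.8% passed as lower. The histone genes HTB2, HTA2 and HTB1, transcribed in S phase, were lower by limma in 3 of 3 measured genes, with means of -1.66, -1.28 and -0.81 (median -1.28). G2/M genes fell in 3 of 5, with CLB1 at -0.86, ALK1 at -0.68 and IRC8 at -0.39 (median -0.49), and G1/S genes in 2 of 8, with CLN2 at -0.48 and CLN1 at -0.35 (median -0.05). Of 17 alternatives, the call was absent in 11 for IRC8, 7 for CLN1, 3 for CLN2 and 1 for ALK1. Sporulation genes had 0 of 4 passing in limma, 3 at an unadjusted p under 0.05 and a median of 0.24, from -0.15 to 0.26. Among mating genes, which mark haploid cells, 2 of 7 were lower, FAR1 at -0.88 and AGA1 at -0.59, with a median of 0.13 over the 7, and the call of FAR1 was absent in 3 of 17 alternatives.

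The nearest protein-coding genes on either side of the members, taken from the gene order of the RefSeq R64 assembly and outside the rule for named genes, were measured in 6 of 8 cases, and 0 passed in limma, with 1 at an unadjusted p under 0.05. EGT2 lies between MDJ2 (0.09 ± 0.08) and PFA3 (0.12 ± 0.07), and DSE4 between YNR066C (-0.10 ± 0.08) and YNR068C (0.22 ± 0.11). YLR287C beside CTS1 was at -0.38 ± 0.14 (adjusted p = 0.0978) and IFA38 beside AMN1 at -0.30 ± 0.18 (adjusted p = 0.277). The adjusted p of the 4 neighbours of EGT2 and DSE4 ran from 0.197 to 0.475.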

How the data were processed

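The deposited table held log ratios of the 2 channels, read here as log2, for 6912 spots in 16 readings of 8 slides. Per the labels, a column kit yielded the RNA and labelling was indirect, while the scanner, background correction and normalization are not given in the sources used here. The base of the logarithm is not stated. Base 10 is beyond a 16-bit scanner at the 6.16 of the largest value, and a natural base is possible. Medians of single readings over all spots lay between -1.03 and 0.45. The readings were thus not centred on that median, and whether they were centred in another way is unknown. Signal over background is unknown without channel intensities, and the number of slides limits the precision.

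Slides were turned to treated over untreated. Readings were set to 0 at the median of their single-gene spots, then averaged by gene and slide. The limma 3.58.1 fit (R 4.3.3) covered all 3127 genes, with 4 time coefficients and channel orientation (3 residual degrees of freedom, 4.89 prior). P-values were two-sided and Benjamini-Hochberg adjusted over all genes, with a threshold of 0.05. Of 3344 single-gene spots, 3343 were matched by gene number to RefSeq R64, and the 387 spots with several names and 3181 without one were left out. The fit was tested on simulated data.

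The members and lists were chosen with earlier results of these data known. Named genes are the members, up to 4 passing genes of largest mean change per list, the 3 genes most correlated with each member, and RNR2 and RNR4. Other genes named, such as list genes that did not pass, were picked after their values were seen. Alternatives changed the centring, the scaling, the readings, the model or the slides. Some planned results are not reported here. The planned motif search was not run, because promoter sequences were not used here, and listed genes without a single-gene spot were not analysed here.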

Additional observations from a re-analysis of the deposited data

Results flagged for a closer look

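FAR1, which arrests the cycle in response to mating pheromone, had 1 slide far from the others: it stood at -2.58 on the 2 h slide whose channel 1 held the treated RNA, with the next lowest at -1.03. By the nominal level of the gap test used (95%), chance alone gives about 1 in 20 groups such a gap. Both slides of NET1 were above 0 at 2 h and below 0 at 1 h, 4 h and 6 h, with differences of 0.91 for 2 h minus 1 h, -1.54 for 4 h minus 2 h and -1.22 for 6 h minus 2 h. UTR2 showed the same split of signs, with differences of 0.84, -1.25 and -1.05. The differences of NET1 and UTR2 between single times were not tested one by one. In the main limma F-test for any difference among the times, which covered both genes, 0% of all genes passed.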

How the results depend on the processing

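No paired analysis was possible because the labels give no replicate numbers that the times share. Forward slides held the treated RNA in channel 1, swapped slides in channel 2. The means of the members stayed below 0 in all 17 alternatives, from -2.51 to -2.06 for EGT2, -2.11 to -1.38 for CTS1 and -1.76 to -1.25 for AMN1, and from -1.69 with faible to -2.17 with fort readings only for DSE4. The choice of the members by their mean favours that sign, so nothing is read from it. The 3 other cell separation genes that fell passed in every alternative, where 3 or 4 did.

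Without centring, the median gene stood at 0.20 in the mean and at 0.36 in the late minus early difference. Values as deposited gave late minus early differences of 0.085 for EGT2 and 0.20 for DSE4, an F of 9.81 for CTS1 (adjusted p = 0.000301), and orientation differences of -0.016 for DSE4, -1.37 for CTS1 (adjusted p = 2.16e-05) and -0.91 for AMN1 (adjusted p = 0.00853). They called 1042 genes in the mean (226 lower and 816 higher, against 369 and 218 after centring), 78 late minus early and 86 by the F-test. The limma p-values of this uncentred fit rest almost wholly on a spread shared among genes, with an adjusted p of 3.32e-90 for RNR2 in the mean. Late minus early ran from -0.71 to 0.10 for EGT2 and from -1.02 to -0.22 for AMN1 as single slides were left out. The value above 0 for EGT2 arose without the swapped 2 h slide, and the AMN1 call without the forward one.

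The orientation difference of EGT2 passed after quantile normalization (1.01, adjusted p = 0.0158). That of CTS1 passed with slides scaled to one median absolute deviation (-1.50), with fort readings only (-1.30) and without either 6 h slide, in a range over left-out slides from -1.62 to -0.78.

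Counts over all genes moved more. In the mean, 255 genes passed without an orientation term, 1417 on the 4 and 6 h slides alone (an alternative chosen after seeing the data, with 1 residual degree of freedom), and 241 to 814 as single slides were left out, with 241 without the swapped 6 h, 293 without the forward 1 h and 344 without the swapped 4 h slide. Late minus early, 0 in the main limma fit, had 64 after quantile normalization, 1 with scaled slides and 0 to 137 as single slides were left out, with 137 without the forward and 3 without the swapped 2 h slide. The F-test had 8 after quantile normalization, 1 with faible readings and 0 to 58 as slides were left out (58 without the forward and 3 without the swapped 2 h slide, 1 without the forward 4 h slide). Orientation, 540 in the main limma fit, had 352 centred on all spots, 949 after quantile normalization, 347 with faible readings, 228 on the 4 and 6 h slides and 0 to 280 as slides were left out, with 0 without either 1 h slide. The cause of these shifts was not tested. Of 21 passing list genes named by size, RNR2 and RNR4 included, 11 kept their call in all 17 alternatives. No gene sequence, channel intensity or untreated time course was used, so neither the signal behind a ratio nor the share of cells at a stage can be given.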
